A study of Mus musculus with 8 samples.

Results

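Potassium channel genes were compared between hippocampi of the BTBR and B6 strains. They were taken as all genes on the array whose symbol starts with Kcn followed by family letters and a number. These were 85 of the 27373 gene names on the array, carried by 122 of its 41174 probes. The set held 37 voltage gated genes, 14 inward rectifiers, 11 two-pore channels, 8 calcium activated channels and 15 accessory subunits. Hippocampal RNA came from 4 BTBR T+ Itpr3tf/J mice, an inbred strain used as a model of autism spectrum disorders, and from 4 wild type C57BL/6J mice (B6), the control strain. All mice were male, 5 months old and untreated, and each was hybridized to its own single-color Agilent array. For the BTBR mice, C57BL/6J is labeled as strain background too, but title, source and genotype name them BTBR. BTBR and B6 are separate inbred strains, so that a difference between them cannot be assigned to a single allele.

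Potassium channels let potassium ions leave or enter cells and thereby set the resting potential, the length of the action potential and the firing rate. Voltage gated channels open on depolarization, inward rectifiers hold the membrane near rest, two-pore channels carry leak current and calcium activated channels couple spiking to intracellular calcium. Accessory subunits form no pore but change the gating or the surface level of the channels they bind. In the hippocampus, these channels are known for shaping the excitability of pyramidal, granule and inhibitory neurons, and astrocytes use them to clear extracellular potassium.

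The voltage gated Kcns3, the inward rectifier Kcnj14, and the voltage gated Kcnf1 and Kcnh5 were the members called by at least one test of the strain difference. Kcns3, Kcnf1 and Kcnj14 were lower in BTBR than in B6, and Kcnh5 was higher. Each of them was tested through 1 probe. Probes are 60 bases long, and 14 of the 122 did not align to the genome as one run of that length. Of the probes behind these results, the first 30 bases are shown 5′ to 3′, as the scanner files give them, because they define which transcript each value measures. No base is set in capitals, and Kcnf1 has a dim second probe, shown here as Kcnf1 second.
Kcns3: aaagtaaatgatattgggaaggatttattg
Kcnj14: ggtgaattttgtttttgtttgaagtgccat
Kcnf1: atactcagagatccaaagtatctttttgct
Kcnf1 second: tcacaataaagaggaaattgcttcaggtca
Kcnh5: ggcctgccaaagacaattattcaaaacata
On mm9, the build of the scanner files, the Kcns3 probe lies at chr12:11097716-11097775 on the minus strand, with NM_173417 as its transcript. The Kcnj14 probe lies at chr7:53072247-53072306 on the minus strand, with NM_145963. The Kcnf1 probe lies at chr12:17179527-17179586 on the minus strand, with NM_201531, and the Kcnh5 probe at chr12:75998271-75998330 on the minus strand, with NM_172805. The dim Kcnf1 probe lies at chr12:17183792-17183851 on the plus strand, opposite to the other Kcnf1 probe. The position of the probes within exons or untranslated regions was not analysed here. Kcns3, Kcnf1 and Kcnh5 are 3 of 5 member genes on chromosome 12, whereas chromosomes 1, 2, 3, 7 and 11 carry 8 members each.

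Expression is given as quantile normalized log2 intensity, after subtraction of the local background and addition of an offset of 50, and a difference is BTBR minus B6 on this scale. Because of the offset, the difference of a dim probe is understated. A probe was tested when its signal was clearly above its background, as the scanner software calls it, on at least 75% of either strain's arrays, as 102 probes of 74 member genes did. Median intensities per array ran from 378 to 489, with local background from 42 to 56, and between 56.9% and 71.9% of its probes were well above background. The 8 arrays sat on 2 slides, scanned separately, with replicates 1 and 2 of both strains on slide 1 and replicates 3 and 4 on slide 2. The number of arrays limits the precision, and the smallest exact p that 4 against 4 arrays allow is 0.0286.

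Several arrays stood apart in markers of neighboring tissue or of hippocampal neurons. The summed intensity of the thalamus list (10 of 10 markers tested) was 137000 on BTBR 1 and between 16730 and 26550 on the other arrays. The striatum list (7 of 8 tested) summed to 333900 on BTBR 2, 135900 on B6 2 and 75600 on BTBR 1, and to between 19770 and 32590 elsewhere. The hippocampal pyramidal neuron list (8 of 9 tested) summed to 143500 on BTBR 1 and 165800 on BTBR 2, whereas the other arrays lay between 266000 and 349000. The choroid plexus list (10 of 10 tested) summed to 82820 and 77040 on these BTBR arrays and to between 17170 and 42770 elsewhere. The interneuron list (8 of 8 tested) summed to 361700 on BTBR 2 and to between 172800 and 256500 elsewhere. The dentate granule cell list (8 of 8 tested) summed to between 49030 and 61590 in BTBR and between 56540 and 90620 in B6. Of its markers, 7 were lower in BTBR and 1 higher, and limma called 0. In these lists a gene counts as higher or lower by its brightest probe and as called where any of its probes was. Every tested marker of the thalamus list was higher in BTBR on average. Limma called none of these 10 genes, with 0 of their 21 probes at an unadjusted p under 0.05, and the rank product called 4. In whole hippocampus, fewer cells of a type and less RNA per cell cannot be told apart.

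Limma, in which the spread between mice sets the error, called 2 of the 102 member probes (1.96%) at an adjusted p under 0.05, whereas it called 7.61% of all 27981 probes tested. The rank product, the test that the study used, called 3 member probes (2.94%) at a percentage of false prediction (pfp) of 0.05 or less, against 3.93% of all probes. The 4 arrays of each strain did not overlap for 6 member probes (5.88%), against 14.2% of all probes. At an unadjusted limma p under 0.05 stood 12 member probes (11.8%, 7 higher and 5 lower), against 18.5% of all probes. Each share was below that of the array as a whole. The rule that chose the members used no measured value.

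Among the 102 probes, 57 were higher in BTBR and 45 lower, with a median difference of 0.05, compared with 0.01 over all probes. The median size of a difference was 0.15 in the members and 0.10 over all probes. The median SD within a strain was 0.21 in the members and 0.13 over all probes. Both medians were larger in the members, and neither gap was tested. Differences under 0.5 were seen for 94 of 102 probes (92.2%), compared with 93.3% of all probes, and 1 member probe, that of Kcns3, exceeded 1. For 90 of the 102 probes the 95% interval of the difference lay within 1 log2 unit on either side of 0.

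**Figure D1:**
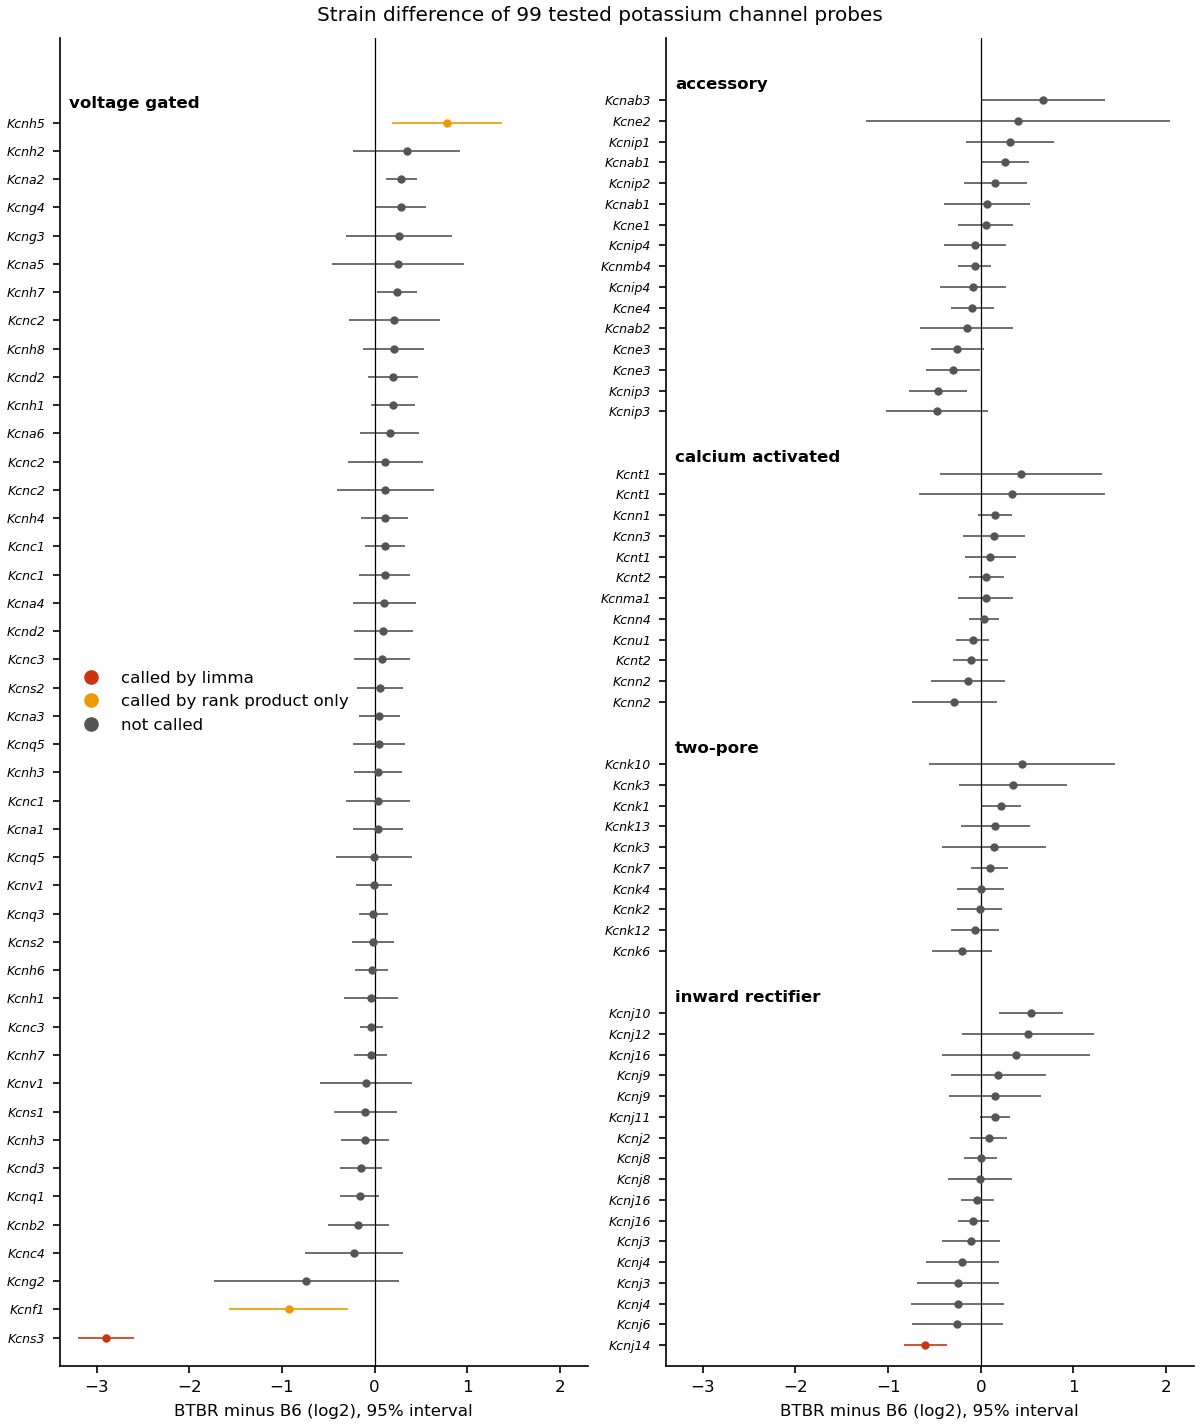
Difference between BTBR and B6 (log2, horizontal axis) with its 95% interval from limma for 99 of the tested potassium channel probes, grouped by subfamily and ordered by size. Kcns3 lies at -2.90, far from all other probes, and 91 of the 99 probes lie within 0.5 of 0.

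Leaving out BTBR 1 and BTBR 2, limma called 4 of 100 member probes (4.00%), among them those of Kcns3, Kcnj14 and Kcnf1, against 5.75% of all probes. With B6 2 left out as well, it called 1 of 92 (1.09%), that of Kcns3, against 4.78%. The rank product called 3 and 2 member probes in these runs, for which its share over all probes was not counted. The fourth call of the first run was that of a dim probe of Kcnab1, a beta subunit of the Shaker-type channels, at 0.33 (adjusted p = 0.0421), while its far brighter probe differed by 0.12 (adjusted p = 0.605). Over all arrays these probes differed by 0.26 and 0.07, neither past limma (adjusted p = 0.259 and 0.904), and the strains overlapped.

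Voltage gated channels were the largest subfamily, with 47 tested probes of 34 genes, of which 28 probes were higher and 19 lower in BTBR. Limma called 1 of them and the rank product 3, against 7.61% and 3.93% of all probes. The median difference was 0.05. Of the 47, 6 (12.8%) reached an unadjusted p under 0.05, 4 of them higher, against 18.5% of all probes. Kcnd1 and Kcnv2 were not well above background on enough arrays to be tested.

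The modifier subunits Kcnf, Kcng, Kcns and Kcnv form no channel alone but assemble with pore-forming subunits of other families and alter their gating. Kcns3, which encodes such a silent subunit known as Kv9.3, fell the most of all members. It measured 11.52, 11.31, 11.43 and 11.59 on the B6 arrays and 8.24, 8.44, 8.80 and 8.77 on the BTBR arrays. All BTBR arrays lay below all B6 arrays, and the probe was well above background on every array. The difference was -2.90 with an SE of 0.13, that is 7.47-fold lower in BTBR (limma, adjusted p = 1.80e-06). The BTBR values are dim, and the difference was 14.8-fold on the processed signal and 5.68-fold on the deposited matrix. On slide 1 the difference was -3.07, and on slide 2 it was -2.73. Within 1 Mb on either side of this probe, 10 other probes of 6 genes were tested. Limma called 0 of them, 0 were at an unadjusted p under 0.05, and their differences lay between -0.21 and 0.11.

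Kcnf1, the silent subunit Kv5.1, was lower in BTBR by the rank product (pfp = 0.0113). It measured 11.88, 12.43, 12.36 and 11.99 in B6 and 11.88, 11.26, 10.39 and 11.42 in BTBR. The strains did not overlap, but only just, since BTBR 1 at 11.875 lay directly under B6 1 at 11.882. The difference was -0.93 with an SE of 0.28 (limma, adjusted p = 0.0958), and BTBR 3 was the lowest array. Its rank product call was made in 5 of the 8 runs that left out 1 array, and was lost without B6 2, without B6 3 and without BTBR 3. Without BTBR 1, limma called it as well, at -1.15 (adjusted p = 0.0375). The second Kcnf1 probe was well above background on no array. Within 1 Mb of Kcnf1, limma called 8 of 21 probes, with differences from -1.33 to 1.74 among the 21.

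The other modifier subunits made no call by either test. Of the modifiers, 10 probes of 8 genes were tested, of which 7 were lower in BTBR. Limma called 1, that of Kcns3, and the rank product 2, those of Kcns3 and Kcnf1, against 7.61% and 3.93% of all probes. Kcns1 differed by -0.10 and the Kcns2 probes by 0.06 and -0.02, so the other Kcns genes showed nothing near the difference of Kcns3. Kcng4 differed by 0.28 and the Kcnv1 probes by -0.09 and -0.01. Kcng3 differed by 0.26 because of BTBR 3, at 9.19 against 7.90 to 8.07 on the other BTBR arrays, and without that array by -0.03. Kcng2, the silent subunit Kv6.2, measured 12.26, 11.97, 12.19 and 12.45 in B6 and 10.50, 10.66, 12.52 and 12.23 in BTBR. Its low values were those of BTBR 1 and BTBR 2, the arrays with the lowest sums of the pyramidal neuron list, whose part in this difference was not tested. The strain difference of Kcng2 was -0.74 with an SE of 0.44 (limma, adjusted p = 0.436), made of -1.53 on slide 1 and 0.05 on slide 2.

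Kcnh5 encodes Eag2, a channel of the ether-a-go-go family that opens near rest. It measured 10.20, 10.82, 10.14 and 9.87 in B6 and 11.61, 11.24, 10.74 and 10.56 in BTBR. The strains overlapped, because B6 2 exceeded BTBR 3 and BTBR 4. The difference was 0.78 with an SE of 0.26 (limma, adjusted p = 0.132), whereas the rank product called it (pfp = 0.0276). The rank product call was made in 3 of the 8 runs that left out 1 array and was lost without B6 3, B6 4, BTBR 1, BTBR 2 or BTBR 3. With the slide in the fit, limma called Kcnh5 too (adjusted p = 0.0194). Without BTBR 1 and BTBR 2 the difference was 0.40 (adjusted p = 0.465). The arrays BTBR 1, BTBR 2 and B6 2 also had the highest sums of the striatum list, whose part in this result was not tested. Within 1 Mb of Kcnh5, limma called 5 of 20 probes.

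Kcna2, a Shaker-type channel of axons, was slightly but evenly higher in BTBR. It measured 10.64, 10.52, 10.66 and 10.57 in B6 and 10.87, 10.98, 10.95 and 10.73 in BTBR, without overlap (exact permutation test, p = 0.0286). The difference was 0.29 with an SE of 0.07 and narrowly missed the threshold of limma (adjusted p = 0.0504). On the deposited matrix, on the gene-wise median of probes and without BTBR 4, limma called it (adjusted p = 0.0388, 0.0471 and 0.0259). These were 3 of 23 alternatives, across which the difference ran from 0.21 to 0.35 and the adjusted p reached 0.492. The rank product did not call Kcna2 (pfp = 0.556).

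Kcna1, which joins Kcna2 in axonal channels, differed by 0.03 (95% interval -0.23 to 0.30). Its B6 arrays ranged from 15.47 to 15.67 and its BTBR arrays from 15.33 to 15.81. Kcnc1, the fast Kv3.1 channel of fast-spiking interneurons, differed by 0.04, 0.11 and 0.11 on its 3 probes. Kcnd2, the pore of the dendritic A-type current, differed by 0.20 (-0.07 to 0.47) and 0.09 (-0.22 to 0.41). Kcnq3, a subunit of the M-current channel, differed by -0.01 (-0.17 to 0.14). None of these probes passed either test, and their strains overlapped.

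**Figure D2:**
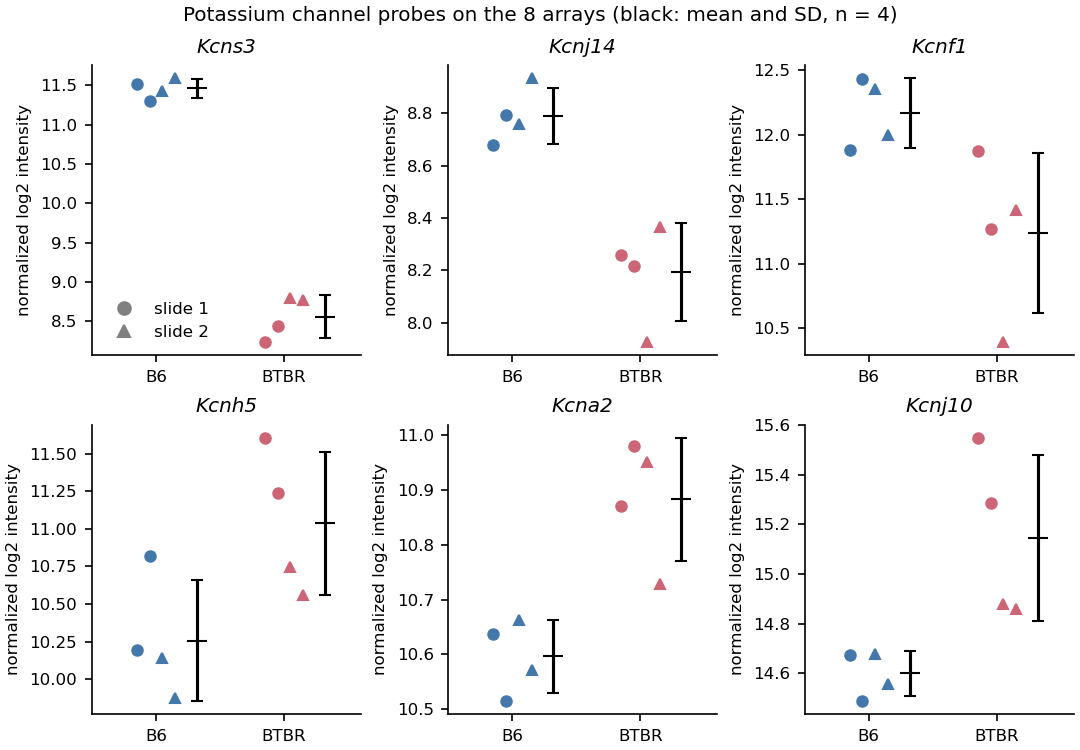
Normalized log2 intensity (vertical axis) of 6 potassium channel probes on the 4 B6 (blue) and 4 BTBR (red) arrays, with circles for slide 1 and triangles for slide 2, and the mean and SD of each strain in black. The axes do not start at 0 and differ between panels. Kcns3 separates by nearly 3 units, whereas B6 and BTBR arrays interleave for Kcnh5.

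Inward rectifiers were tested with 17 probes of 11 genes, of which 7 were higher and 10 lower in BTBR, with a median difference of -0.01. Limma called 1 of them and the rank product 0, against 7.61% and 3.93% of all probes. An unadjusted p under 0.05 was reached by 2 (11.8%), against 18.5% of all probes. Kcnj1, Kcnj5 and Kcnj15 were not tested, and Kcnj6 was tested by 1 of its 2 probes.

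Kcnj14, which encodes the strong inward rectifier Kir2.4, fell in BTBR. It measured 8.68, 8.79, 8.76 and 8.93 in B6 and 8.26, 8.22, 7.93 and 8.37 in BTBR, and the strains did not overlap. The probe is dim and was well above background on 3 of the 4 BTBR arrays and on all B6 arrays. The difference was -0.60 with an SE of 0.10, that is 1.51-fold lower (limma, adjusted p = 0.0069), and the rank product did not call it (pfp = 0.0632). Limma called it in all 8 runs that left out 1 array, but not on the processed signal, where the difference was -1.46 (adjusted p = 0.0625). Within 1 Mb of Kcnj14, limma called 2 of 115 probes, neither of them lower.

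Kcnj10 encodes Kir4.1, the channel through which astrocytes take up potassium. It measured 14.67, 14.49, 14.68 and 14.56 in B6 and 15.55, 15.28, 14.88 and 14.86 in BTBR, so that every BTBR array lay above every B6 array. The difference was 0.54 with an SE of 0.15 (limma, adjusted p = 0.0696; exact permutation test, p = 0.0286). It was 0.84 on slide 1, where limma called it (adjusted p = 0.00809), and 0.25 on slide 2, where it did not (adjusted p = 0.477). The difference between the slides itself had an unadjusted limma p of 0.00985 and an adjusted p of 0.433. Limma also called Kcnj10 on the processed signal, with the slide as a block, without BTBR 3 and without BTBR 4, with adjusted p between 0.0358 and 0.0418. With slide 1, these were 5 of 23 alternatives, and it was not called in the runs without BTBR 1 and BTBR 2. Across the 23, its difference ran from 0.24 to 0.84. The rank product did not call it (pfp = 0.12). Of the astrocyte list, 6 of 8 markers were lower in BTBR, 1 of them past limma, and the list summed to between 117900 and 144500 there and between 150000 and 163600 in B6. Of the oligodendrocyte list, 6 of 8 markers were higher in BTBR, 0 of them past limma, and the list summed to 476400 on BTBR 1 and 553200 on BTBR 2 and to between 291700 and 398400 on the other arrays. These BTBR arrays, the highest in Kcnj10, are those that stood apart in the tissue markers, whose part in this result was not tested.

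The G protein gated Kcnj3, Kcnj6 and Kcnj9, which mediate slow inhibition downstream of receptors such as GABA-B, made no call. The Kcnj3 probes differed by -0.25 (95% interval -0.69 to 0.20) and -0.11 (-0.42 to 0.21), and Kcnj6 by -0.25 (-0.74 to 0.24). For these genes BTBR 2 was the lowest array, at 11.50 and 9.37 on the Kcnj3 probes and at 8.57 on the Kcnj6 probe. The Kcnj9 probes differed by 0.19 (-0.32 to 0.70) and 0.16 (-0.34 to 0.65), with BTBR 1 highest on both.

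Two-pore channels were tested with 10 probes of 9 genes, of which 7 were higher and 3 lower in BTBR, and neither test called any. Over all probes, limma called 7.61% and the rank product 3.93%. An unadjusted limma p under 0.05 was reached by 1 of the 10, against 18.5% of all probes. The median difference was 0.12, and the differences ranged from -0.20 to 0.45. Kcnk5 and Kcnk16 were not tested. Kcnk1, the leak channel TWIK-1, measured 13.97, 13.66, 13.67 and 13.71 in B6 and 14.02, 14.11, 13.81 and 13.93 in BTBR. The difference was 0.22 with an SE of 0.09 and did not pass limma (adjusted p = 0.267), and B6 1 lay within the BTBR range. Kcnk10, the channel TREK-2, had the highest difference of the subfamily because of 1 array. It measured 10.41 on BTBR 3 and between 8.15 and 8.51 on the other 7 arrays.

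Calcium activated channels were tested with 12 probes of 8 genes, of which 8 were higher and 4 lower. Neither test called any, against 7.61% (limma) and 3.93% (rank product) of all probes. An unadjusted p under 0.05 was reached by 0 of the 12, against 18.5% of all probes. Kcnma1, the pore of the BK channel that speeds repolarization, differed by 0.05 (95% interval -0.24 to 0.35). The Kcnn2 probes, for the SK2 channel of the afterhyperpolarization, differed by -0.28 (-0.75 to 0.18) and -0.14 (-0.53 to 0.26). The brighter Kcnn2 probe measured 13.87, 13.72, 13.86 and 13.79 in B6 and 13.09, 13.18, 14.10 and 13.73 in BTBR, so that BTBR 1 and BTBR 2 alone lay below B6. On slide 1 its difference was -0.66 (limma, adjusted p = 0.0289) and on slide 2 it was 0.09. The 3 probes of Kcnt1, the sodium activated Slack channel, differed by 0.43, 0.10 and 0.34, all with BTBR 2 highest and BTBR 3 lowest.

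Accessory subunits were tested with 16 probes of 12 genes, of which 7 were higher and 9 lower, with a median difference of -0.06. Neither test called any, against 7.61% (limma) and 3.93% (rank product) of all probes. An unadjusted p under 0.05 was reached by 3 (18.8%), close to the 18.5% of all probes. Kcnmb1, Kcnmb2 and Kcnmb3 were not tested. With the slide as a block, limma called both probes of Kcne3, a small subunit with one membrane span, at -0.30 (adjusted p = 0.031) and -0.25 (adjusted p = 0.0465). Without the block their adjusted p was 0.247 and 0.346. The probes are dim, between 7.74 and 8.54, and the strains overlapped on both. The first of them was well above background on 3 B6 and 2 BTBR arrays, so that it was tested only through B6, the strain where it is higher, and its call is no support for a difference. Kcnip3, also known as calsenilin or DREAM, binds calcium and joins the Kcnd channels. One of its probes aligns as a split match over chr2:127284097-127285097 on the minus strand, and the other lies at chr2:127283254-127283313 on the same strand. They are shown because they measure NM_019789 at different positions.
Kcnip3 split probe: ccattgatgaatttctggagacttgtcaga
Kcnip3 other probe: attccctggggagatcacctggctcataga
The split probe measured 9.93, 10.11, 10.08 and 9.98 in B6 and 9.66, 9.73, 9.12 and 9.75 in BTBR, without overlap. The other measured 11.93, 11.86, 12.13 and 11.73 in B6 and 11.80, 11.77, 10.64 and 11.55 in BTBR, with overlap. Their differences were -0.46 (SE 0.14) and -0.47 (SE 0.24), and neither passed limma (adjusted p = 0.0894 and 0.354). BTBR 3 was lowest on both probes, and without it limma called the split probe at -0.31 (adjusted p = 0.033) but not the other at -0.20 (adjusted p = 0.328).

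Kcnab2, the related beta subunit, differed by -0.15 (95% interval -0.65 to 0.35), with -0.47 on slide 1 and 0.16 on slide 2. Kcnmb4, the neuronal beta subunit of the BK channel, differed by -0.07 (-0.24 to 0.11). Kcnab3, another beta subunit, measured 10.96, 11.40, 11.20 and 10.72 in B6 and 12.19, 12.37, 11.01 and 11.39 in BTBR. Its difference was 0.67 with an SE of 0.30 (limma, adjusted p = 0.271), and its high arrays were BTBR 1 and BTBR 2. Kcne2, a small subunit that is abundant in choroid plexus, measured 12.29, 13.16, 13.43 and 11.0 in B6 and 14.13, 13.96, 11.48 and 11.93 in BTBR. Its 4 highest arrays, BTBR 1, BTBR 2, B6 3 and B6 2, were also the 4 highest in the sum of the choroid plexus list. Its difference of 0.40 had an SE of 0.72 (limma, adjusted p = 0.833).

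**Figure D3:**
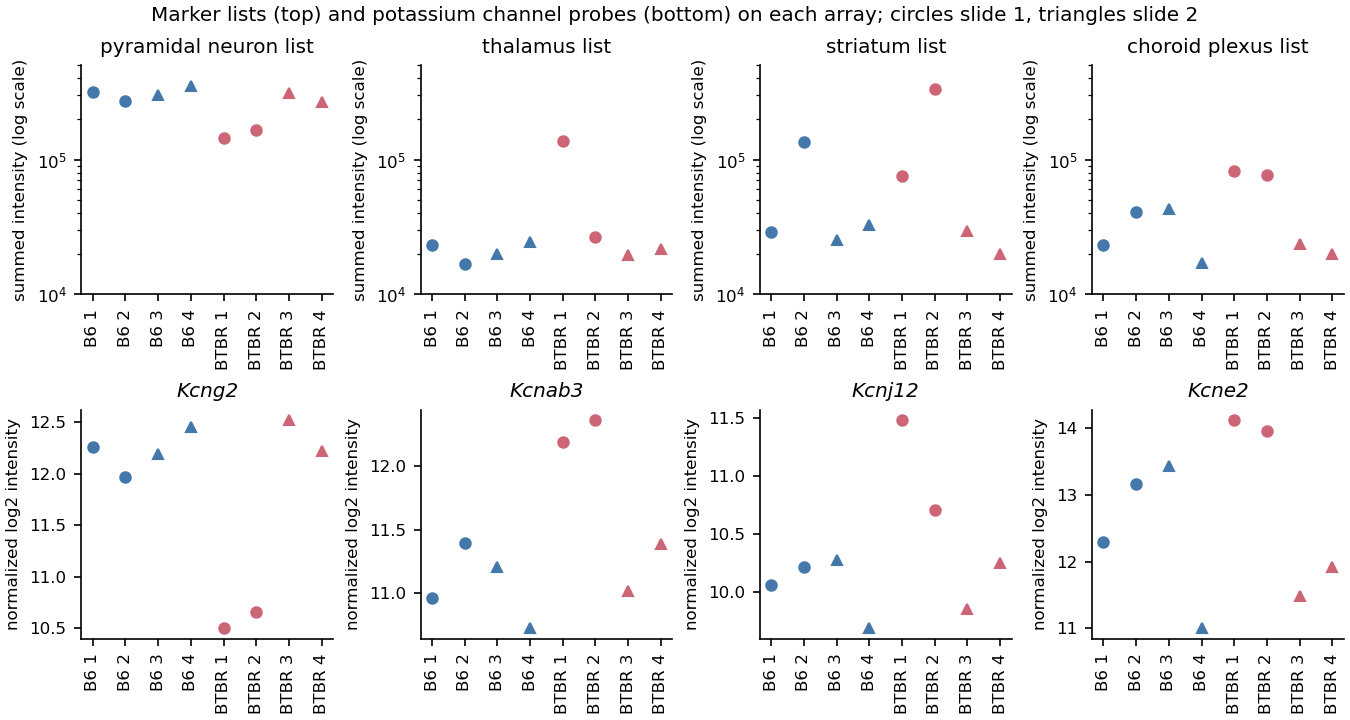
Summed intensity of 4 marker lists (top row, log scale) and normalized log2 intensity of Kcng2, Kcnab3, Kcnj12 and Kcne2 (bottom row) on each array, B6 in blue and BTBR in red, with circles for slide 1 and triangles for slide 2. BTBR 1 and BTBR 2 have the lowest pyramidal neuron sums and the lowest Kcng2 values, 10.50 and 10.66, and the highest Kcne2 values, 14.13 and 13.96.

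Strain differences were then compared between the slides, each of which held 2 mice per strain. Differences over 0.5 in size were seen for 19 member probes (18.6%) on slide 1 and for 10 (9.8%) on slide 2, compared with 11.9% and 6.36% of all probes. Limma with a spread pooled over both slides called 7 member probes (6.86%) on slide 1, against 8.65% of all probes, and 1 (0.98%) on slide 2, against 3.70%. Kcns3 was the member called on both. On slide 1 the others were Kcnj10, Kcnab3 and Kcnn3, which were higher in BTBR, and Kcnn2, Kcnb2 and Kcng2, which were lower. Differences over 0.5 in the same direction on both slides were seen for 3 of the 102 probes, those of Kcns3, Kcnf1 and Kcnh5, and for 1095 of all 27981 probes. The sign was the same on both slides for 45 of the 102 member probes (44.1%), and for 56.8% of all probes.

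The difference between the slides was tested for every probe. For this test, an unadjusted limma p under 0.05 was reached by 13 member probes (12.7%), against 9.94% of all probes, and none passed after adjustment. The smallest adjusted p, 0.33, was that of Kcng2. BTBR 1 and BTBR 2, the arrays that stood apart in several marker lists, are the BTBR arrays of slide 1, so slide and tissue markers cannot be told apart in these differences.

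**Figure D4:**
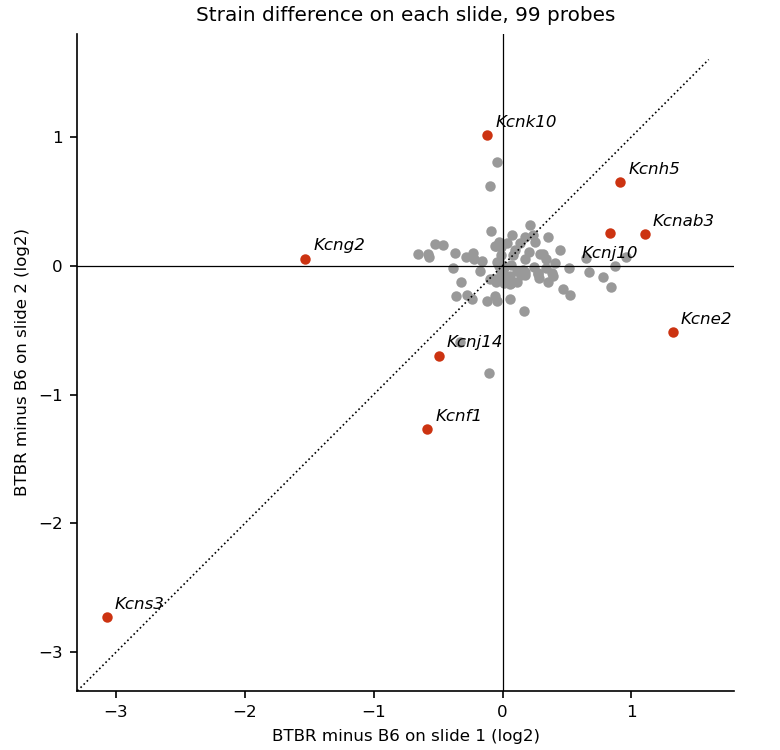
Strain difference on slide 1 (horizontal, log2) against slide 2 (vertical, log2) for 99 of the tested potassium channel probes, with the line of equality dotted and named probes in red. Kcns3 lies near the line at -3.07 and -2.73, whereas Kcng2 (-1.53 and 0.05) and Kcne2 (1.32 and -0.51) differ on slide 1 much more than on slide 2 or in the opposite direction.

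Of the 74 tested genes, 24 had several tested probes and 50 had 1. None of the 24 had a probe called by limma or the rank product, whereas 10.1% of all genes tested had one called by limma. A probe at an unadjusted p under 0.05 was seen for 4 of the 24, against 23.5% of all genes. These shares rise with the number of probes per gene, which was not matched. With the slide as a block, limma called the probes of 1 of the 24, Kcne3, and 1 of these probes was tested only through B6. All probes of a gene differed in the same direction for 16 of them, and 8 had probes of both signs. The largest gap between probes of 1 gene was 0.46, in Kcnj16, a partner of Kcnj10. Its probe with a difference of 0.38 measured 9.77 on BTBR 3 and between 8.04 and 8.33 on the other arrays. The other Kcnj16 probes differed by -0.04 and -0.08.

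The 17 members chosen for their known roles in hippocampal neurons and glia had 25 tested probes, of which 14 were higher and 11 lower in BTBR. Neither limma nor the rank product called any of these 25, against 7.61% and 3.93% of all probes. Of the 25, 4 were at an unadjusted p under 0.05, against 18.5% of all probes, and the differences of the 25 ran from -0.47 to 0.54. For 24 of them the 95% interval lay within 1 log2 unit on either side of 0.

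Among 32 other genes of potassium handling, 29 were tested, of which 20 were higher and 9 lower in BTBR, with a median difference of 0.06. Limma called a probe of 2 of these genes (6.90%), Slc12a2 and Abcc9, both higher, against 10.1% of all 18398 genes tested. A probe at an unadjusted p under 0.05 was seen for 9 of the 29 (31.0%), against 23.5% of all genes. Both shares rise with the number of probes per gene, which was not matched between the sets. The other 27 tested genes, among them 6 Na,K-ATPase subunits, 4 HCN channels and 12 channel partners, were not called by limma or the rank product, and 7 of them were among these 9. Slc12a2 encodes NKCC1, which brings sodium, potassium and chloride into cells. It measured 11.01, 11.07, 11.21 and 10.99 in B6 and 12.59, 12.63, 11.80 and 11.55 in BTBR, without overlap. The difference was 1.07 with an SE of 0.24 (limma, adjusted p = 0.0243), and the call was made in 2 of the 8 runs that left out 1 array, those without BTBR 3 and without BTBR 4. Its highest arrays, BTBR 1 and BTBR 2, were also highest in the choroid plexus list. Without them the difference was smaller, at 0.62 with an SE of 0.10, and was called (adjusted p = 0.0155), as it was with B6 2 left out too (0.62, adjusted p = 0.0382).

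Abcc9 encodes SUR2, the regulatory subunit that pairs with Kcnj8 and Kcnj11 in ATP sensitive channels and is abundant in pericytes. Its probe with the smallest p ranged from 7.81 to 8.0 in B6 and measured 8.56, 8.64, 8.64 and 8.46 in BTBR. The 3 Abcc9 probes differed by 0.63 (SE 0.07, adjusted p = 0.000614), 0.65 (SE 0.09, adjusted p = 0.00151) and 0.37 (SE 0.12, adjusted p = 0.12), all with a higher mean in BTBR. The called probes are dim and were well above background on 3 of the 4 B6 arrays, whereas the uncalled probe, the brightest, was so on all 8 arrays. Abcc9 was called in all 8 runs that left out 1 array, but not when probes had to be well above background on all arrays, which left the uncalled probe alone (adjusted p = 0.121). Of its pore partners, Kcnj11 differed by 0.15 (adjusted p = 0.3) and the Kcnj8 probes by -0.01 and -0.0006, none past limma. The pericyte and vascular list, of which Abcc9 is a member, summed to between 55610 and 73900 in B6 and between 67660 and 73930 in BTBR. Of its 8 markers 5 were higher in BTBR by their brightest probe, and 2 had a probe that limma called, Abcc9 and the pericyte marker Rgs5. Rgs5 was called on its dimmer probe at 0.65 (adjusted p = 0.0145), whereas its brighter probe, by which it counts as lower, differed by -0.17 (adjusted p = 0.478). The part of these cells in the Abcc9 result was not tested.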

How the data were processed

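RNA of 4 BTBR and 4 B6 hippocampi was hybridized to 1 array each, grouped by the titles in the labels. The deposited intensity values come from the authors' run of Feature Extraction, version 10.7.3.1 by the file headers, not normalized between arrays. The authors also deposited a log2 matrix, made with Agi4x44PreProcess, quantile normalization and the median of replicate spots, which was used as an alternative. Probe names, gene names, sequences and mm9 positions come from the scanner files.

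Median local background was subtracted from mean intensity, with a floor of 0.5. After addition of 50, the log2 intensities were quantile normalized across arrays (R 4.3.3, limma 3.58.1). Control spots and spots flagged as outliers on any array were dropped, which removed 154 probes, and the median was taken over replicate spots. Probes well above background on at least 75% of the arrays of a strain were kept, 27981 of 41174. Limma fitted strain alone, with Benjamini-Hochberg adjustment over all these probes. The rank product, written out here, used 100 permutations of the probes within arrays, and exact permutation tests were two-sided. Scripts were tested on simulated data. Figures were drawn with matplotlib in Python.

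The members and gene lists were chosen with earlier results of these data known. Named were members called by either test and 17 members known in hippocampus, with other potassium handling genes called by limma. All further genes were named after their values were seen, or to account for untested members. Mice were not paired by replicate number in the main fit. Nothing says the samples shared litters, and p-values measure the spread between these mice. The alternatives were other signals, normalizations, filters, thresholds and blocks, each slide alone, each array left out, and BTBR 1 and BTBR 2 left out with or without B6 2, which was added after seeing the data. The qRT-PCR measurements and the En2 mice were not analysed here. Some members are not reported here by name.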

Additional observations from a re-analysis of the deposited data

Results flagged for a closer look

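For the member probes reported here, in each strain's 4 arrays, the most distant array was compared with its neighbor by Dixon's ratio of gap to range, against its 95% critical value for 4 values. Of 198 groups 7 exceeded it (3.54%), and chance flags about 1 in 20 groups. BTBR 3 was the distant array in 4 of the 7. It was high for Kcnk10 (10.41 against 8.50 for the next array, ratio 0.847), for 1 of 3 Kcnj16 probes (9.77 against 8.26, ratio 0.877) and for Kcng3 (9.19 against 8.07, ratio 0.874), and low for the split probe of Kcnip3 (9.12 against 9.66, ratio 0.864). BTBR 2 was low for 1 of the Kcnip4 probes (13.35 against 13.97, ratio 0.837). B6 1 was low for Kcne1 (7.79 against 8.22, ratio 0.888) and high for Kcnk1 (13.97 against 13.71, ratio 0.833).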

How the results depend on the processing

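Kcns3 kept its direction and its limma call under all 23 alternatives run, with differences from -3.89 to -2.51. Kcnj14 kept its direction under the 22 that could test it, with differences from -1.46 to -0.40, and was called in 18. It was not called on the processed signal, within slide 1, within slide 2, or without BTBR 1, BTBR 2 and B6 2 together. The limma count of 2 member probes became 1 with probes well above background on all arrays, 6 with the slide as a block, among them both Kcne3 probes, 7 within slide 1, 1 within slide 2, 6 at an adjusted p under 0.1, 4 without BTBR 1 and 2, and 1 without these and B6 2. The share of member probes called by limma was below that of all probes in each setting run, with 5.88% against 8.32% for the slide block and 5.88% against 10.3% at an adjusted p under 0.1. Leaving out 1 array gave 2 to 4 limma calls, with 4 without BTBR 1, BTBR 3 or BTBR 4, and 2 to 4 rank product calls. The rank product count of 3 became 1 at a pfp of 0.01 or less. Rank product shares over all probes were not counted under the alternatives, so its counts have no array-wide share beside them. The count of 2 other potassium handling genes became 1 with probes well above background on all arrays, where Abcc9 was lost, and at an adjusted p under 0.01, 7 within slide 1, and 1 to 3 when 1 array was left out. With the replicate number as a block, limma called 2 member probes, so the replicate block changed no member call, and over all probes it called 1650 in place of 2129. Same-numbered mice correlated by -0.14, 0.51, -0.10 and 0.39. B6 1 and B6 3 correlated best with a BTBR mouse of another number, and B6 2 and B6 4 with that of their own number. Over the 29 named probes and their alternatives, 51 of 666 differences changed sign, in 15 probes, and 0 of the 51 were called by limma under that alternative. The cause of these changes was not tested. Depth limits dim probes such as that of Kcnj14, and differences of untested members are unknown.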
